A study of Mus musculus with 2 samples.

Results

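Osteopontin, the secreted phosphoprotein encoded by Spp1, and the surface proteins that bind it are described here at the RNA level in mouse bone marrow-derived macrophages. The 10 genes were taken by symbol from a deposited table of 40017 symbols: Spp1 as the targeted gene, the CD44 gene Cd44, and the 8 integrin chain genes Itgav, Itga4, Itga5, Itga9, Itgb1, Itgb3, Itgb5 and Itgb7. All 10 were present with 1 row each, and all 10 had a mean of at least 1 FPKM (fragments per kilobase, corrected for library size). The KO library came from mice of genotype SPP1fl/fl-Lyz2-icre, in which both Spp1 alleles are floxed and a Cre is driven from Lyz2, a gene active in myeloid cells. The WT library came from SPP1fl/fl mice, which carry the same floxed alleles without the Cre. Marrow cells of both genotypes were grown for 5 days in DMEM medium with macrophage colony-stimulating factor at 20 ng/ml. Age, sex, the number of animals behind each library and the floxed exons are not stated in the labels. There is 1 library per genotype, so no spread between cultures is known, no test was possible, and each difference below is a difference between these 2 libraries. The design text states the question as the effect of SPP1 on the macrophage.

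Osteopontin binds cells through separate receptor classes. Its arginine-glycine-aspartate (RGD) motif is read by integrins that contain the αv chain, paired with β1, β3 or β5, and by α5β1. A second, cryptic site beside the RGD motif becomes accessible when thrombin cuts the protein and is bound by α4β1, α9β1 and α4β7. CD44, best known as the hyaluronan receptor, binds osteopontin through other parts of the protein. In macrophages osteopontin is known as a secreted adhesion and migration factor, and αvβ3 is best known as the adhesion receptor of osteoclasts. Each integrin is a heterodimer, so a receptor needs both its α and its β chain.

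The stretch of Spp1 that encodes both integrin sites is shown because the receptor genes fall into groups by which of its 2 sites they read. It lies at chr5:104439457-104439528 on the plus strand of GRCm38, in coding exon sequence, and its 72 bases run 5′ to 3′ in the transcript annotated by GENCODE. Capitals mark the 3 codons of the RGD motif in the first line and the 7 codons of the cryptic site in the second.
RGD motif: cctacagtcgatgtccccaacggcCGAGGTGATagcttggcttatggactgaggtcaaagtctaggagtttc
Cryptic site: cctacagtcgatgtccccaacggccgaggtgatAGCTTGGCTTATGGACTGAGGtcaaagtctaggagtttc
The sites follow each other directly, with 0 bases between them, in exon 6 of the 7 exons of transcript ENSMUST00000031243.14, whose reading frame has 294 codons. Each deposited value is a sum over the gene and cannot tell whether this stretch was among the RNA left in the KO library.

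The libraries carried the marker genes of macrophages. All 8 macrophage markers looked at had a mean above 1 FPKM. In direction 4 were higher and 4 lower in KO, against 47.4% and 52.6% of all symbols. Csf1r stood at 851.8 FPKM in KO cells and 834.7 FPKM in WT cells, and Fcgr1 at 190.2 FPKM in KO cells and 99.2 FPKM in WT cells. Lyz2, the gene that carries the Cre, was at 13539 FPKM in KO cells, against 29499 FPKM in WT cells. Monocyte markers summed to 88.8 FPKM in KO cells and 55.6 FPKM in WT cells. Ms4a4c alone gave 53.4 of this in KO cells and 14.7 in WT cells, and the other 6 monocyte markers summed to 35.4 FPKM in KO cells and 40.9 FPKM in WT cells. Of the 5 past the filter 4 were higher in KO, against 47.4% of all symbols. F13a1 was lower, at 6.36 FPKM in KO cells and 17.8 FPKM in WT cells. Stromal markers summed to 4.11 FPKM in KO cells and 9.35 FPKM in WT cells. T and NK cell markers summed to 1.18 FPKM in KO cells and 0.922 FPKM in WT cells, with Cd3e, Cd3d, Cd2 and Ncr1 listed at 0 in both. Neutrophil markers summed to 3.29 FPKM in KO cells and 1.92 FPKM in WT cells. B and plasma cell markers summed to 3.49 FPKM in KO cells and 2.42 FPKM in WT cells, dendritic cell markers to 1.24 FPKM in KO cells and 1.38 FPKM in WT cells, and erythroid markers to 0.908 FPKM in KO cells and 0.867 FPKM in WT cells. The WT library was 1.308 times as deep as the KO library, judged from the steps between the lowest values.

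Spp1 was nearly lost from the KO library. It stood at 11.3 FPKM in KO cells and 4006 FPKM in WT cells, a difference of -8.34 on the log2(FPKM + 1) scale on which all differences here are given as KO minus WT. No other symbol of the 10536 with a mean of at least 1 FPKM differed as much. Ligand and receptor transcripts therefore stood in different proportions in the 2 libraries. Spp1 RNA was 0.0251 times the summed level of the 9 receptor genes in KO and 9.41 times that sum in WT. As a share of all FPKM in the library, Spp1 made up 0.00269% in KO and 0.941% in WT. At the estimated depths, the Spp1 values correspond to about 300 fragments in KO and about 137220 in WT, so the KO value rests on a measurable remainder and not on single reads. In these bulk samples, fewer cells making Spp1 and less Spp1 RNA in each cell cannot be told apart. Whether cells other than macrophages gave the remaining Spp1 RNA was not tested. In the annotation, Spp1 shares 309 exon bases with Gm42793 on the same strand, a locus that the table does not list.

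**Figure D1:**
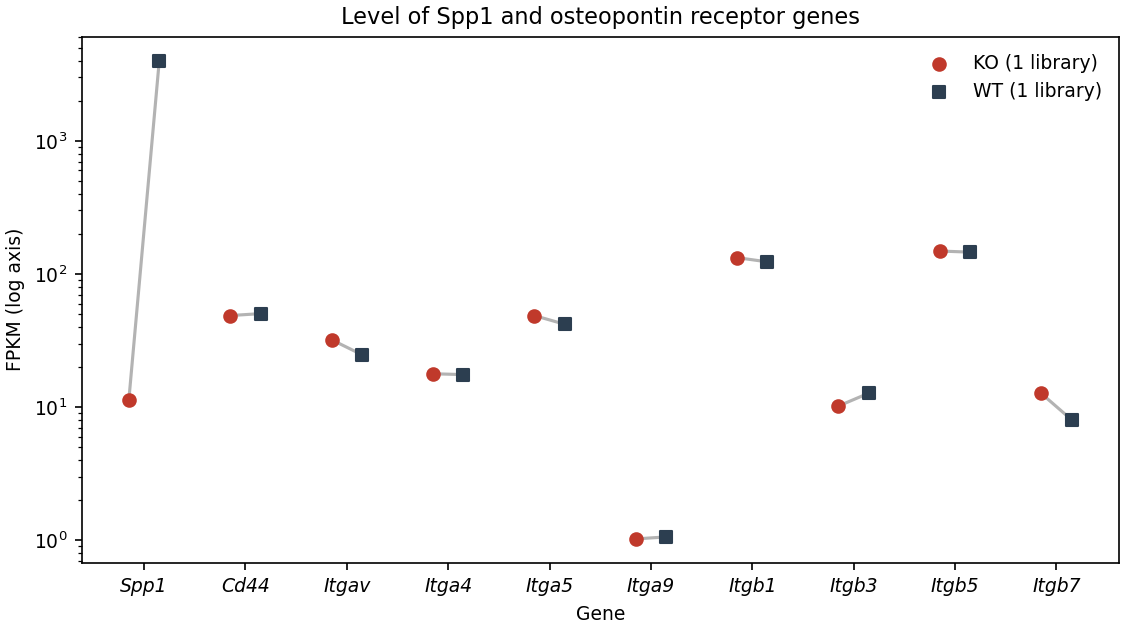
FPKM (log axis) of Spp1 and the 9 osteopontin receptor genes in the KO library (circles) and the WT library (squares), 1 library each, so no error is drawn. Spp1 stands at 11.3 in KO and 4006 in WT, while among the receptor genes the widest gap between the libraries is 1.58-fold, for Itgb7.

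No protein-coding symbol with 1 row came near the difference of Spp1. Between Spp1 and the nearest of them lay 37 other symbols, the most negative at -4.85. Of these, 27 have several rows in the table, so their values are uncertain, and 10 have 1 row but are not annotated as protein-coding. The 5 protein-coding symbols with 1 row and the most negative differences after Spp1 were F13a1 (-1.35), Lyz2 (-1.12), Serping1 (-1.09), Dcn (-1.09) and Mrap (-0.93). F13a1 encodes the A chain of coagulation factor XIII and Dcn the matrix proteoglycan decorin. Mrap, an accessory protein of the melanocortin receptors, stood at 0.577 FPKM in KO cells and 2.005 FPKM in WT cells. Likeness here means only the size of 1 difference between 2 libraries. Osteopontin's relatives in the SIBLING family of mineralised matrix proteins were not detected at levels near the filter in either library. Ibsp and Dspp were listed at 0 in both libraries, and Dmp1 (0.0400 FPKM) and Mepe (0.0342 FPKM) were read in KO cells and listed at 0 in WT cells.

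The summed level of the receptor genes was 452.7 FPKM in KO cells and 425.7 FPKM in WT cells, a ratio of 1.06. Of the 9 receptor genes, 6 were higher and 3 lower in KO in direction, against 47.4% and 52.6% of all symbols. When the libraries were scaled to equal sums without Spp1 and Lyz2, 4 receptor genes were higher and 5 lower. This scaling turned the signs of Itga4 and Itgb5. The median difference was 0.03 as deposited, and that over all 10536 symbols was -0.01. Genes were then counted by the size of the difference. At 2-fold on the FPKM + 1 scale, 0 of 9 were higher and 0 of 9 lower, where 1.23% of all symbols were higher and 0.475% lower. At 1.5-fold, 1 of 9 was higher (Itgb7), against 3.24% of all symbols, and 0 were lower, against 1.15%. At a difference of at least 0.32, the smallest threshold used, 2 of 9 were higher (Itgb7 and Itgav), against 7.55% of all symbols, and 0 were lower, against 4.3%. The 1.5-fold count of Itgb7 was lost with a pseudocount of 5 FPKM (0.44) and with the equal-sum scaling (0.55), and Itgav was under the smallest threshold of 0.322 with both, at 0.318 and 0.305. These shares describe 1 pair of libraries and carry no error.

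**Figure D2:**
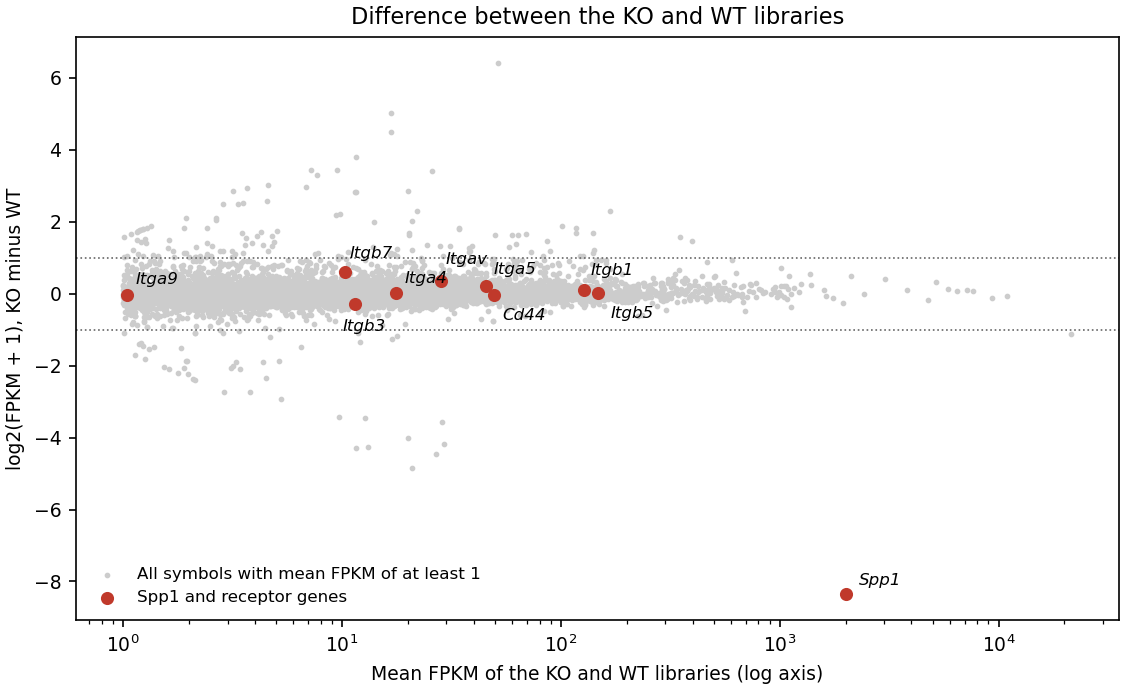
Difference in log2(FPKM + 1), KO minus WT, against the mean FPKM of the 2 libraries (log axis) for 10536 symbols (grey) and the 10 genes described here (red), with dotted lines at 2-fold. Spp1 lies alone at -8.34, and the receptor genes lie between -0.30 and 0.60, within the band of all symbols.

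CD44 RNA was close to level between the libraries. Cd44 stood at 48.7 FPKM in KO cells and 50.4 FPKM in WT cells, a ratio of 0.967 and a difference of -0.05. A difference at least this large in size was seen for 76.7% of all symbols. The gene has 9 annotated transcripts, which include the variant exons in its middle, and the deposited value does not separate them. Among hyaluronan and CD44 partner genes, 10 of 17 passed the filter. In direction 4 were higher and 6 lower in KO, against 47.4% and 52.6% of all symbols. At 2-fold 0 were higher and 0 lower, against 1.23% and 0.475%. The list's median was -0.03. The 4 with the largest differences in this list were all small. Ezr, which links CD44 to actin, stood at 13.6 FPKM in KO cells and 16.0 FPKM in WT cells. The hyaluronidase gene Hyal1 stood at 5.30 FPKM in KO cells and 4.595 FPKM in WT cells, and the hyaluronan receptor gene Hmmr at 6.39 FPKM in KO cells and 7.27 FPKM in WT cells. Srgn, the proteoglycan serglycin, stood at 70.2 FPKM in KO cells and 77.2 FPKM in WT cells.

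Of the α chains among the 10 genes, those that read the RGD motif, Itgav and Itga5, both stood higher in KO. Itga5 stayed under the smallest threshold of 0.32, and Itgav fell under it in the settings named above. Itgav, the αv chain shared by several osteopontin receptors, stood at 32.1 FPKM in KO cells and 24.7 FPKM in WT cells, a ratio of 1.30 and a difference of 0.36. A difference at least this large was seen for 9.54% of all symbols. The annotation places 634 exon bases of Gm13684 over Itgav exons on the opposite strand. Whether the counting used strand is not given. Itga5, the α chain of the fibronectin receptor α5β1, stood at 48.7 FPKM in KO cells and 41.9 FPKM in WT cells, a ratio of 1.16 and a difference of 0.21, a size reached by 23.4% of symbols. Both genes were covered by about 3710 to 4180 fragments in each library at the estimated depths.

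The α chains that read the cryptic site were level between the libraries. Itga4, known from the lymphocyte and monocyte adhesion receptor VLA-4, stood at 17.8 FPKM in KO cells and 17.6 FPKM in WT cells, a difference of 0.02. Its exons share 1124 bases with Cerkl on the opposite strand, a gene at 0.572 FPKM in KO cells and 0.425 FPKM in WT cells. Itga9 was the least abundant of the 10 genes in both libraries, at 1.02 FPKM in KO cells and 1.06 FPKM in WT cells, a difference of -0.03. It rests on about 120 fragments in KO and about 170 in WT, the fewest of the 10 genes, and lies just inside the 1 FPKM filter.

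The 4 β chain genes covered a wide range of levels. Itgb5, which pairs with αv, was the most abundant receptor gene in both libraries at 148.8 FPKM in KO cells and 145.95 FPKM in WT cells, a difference of 0.03. Itgb1, the common partner of many α chains, followed at 132.7 FPKM in KO cells and 123.3 FPKM in WT cells, a difference of 0.10. These 2 genes were near level between the libraries.

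Itgb3 was the receptor gene with the most negative difference. It stood at 10.2 FPKM in KO cells and 12.7 FPKM in WT cells, a ratio of 0.80 and a difference of -0.30, a size reached by 13.7% of symbols. Osteoclast markers, a cell type known for high αvβ3, summed to 221.2 FPKM in KO cells and 234.6 FPKM in WT cells, with Calcr and Oscar listed at 0 in both. Atp6v0d2 made up most of this sum, at 163.3 FPKM in KO cells and 178.7 FPKM in WT cells. The other 6 osteoclast markers summed to 57.9 FPKM in KO cells and 55.9 FPKM in WT cells, and the median difference of the 4 past the filter was 0.03. Megakaryocyte markers, another cell type known for β3, summed to 5.36 FPKM in KO cells and 5.07 FPKM in WT cells. Itga2b made up most of that sum, at 4.05 FPKM in KO cells and 3.58 FPKM in WT cells. The other 5 megakaryocyte markers summed to 1.31 FPKM in KO cells and 1.49 FPKM in WT cells. The part of either cell type in the Itgb3 difference was not tested.

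Itgb7 showed the largest difference among the receptor genes. It encodes the β7 chain, which pairs with α4 and, in lymphocytes of the gut, with αE. It stood at 12.7 FPKM in KO cells and 8.03 FPKM in WT cells, a ratio of 1.58 and a difference of 0.60, a size reached by 4.205% of all symbols. This corresponds to about 590 fragments in KO and about 490 in WT at the estimated depths. Itgae, the αE gene, has several rows and stood at 0.0563 FPKM in KO cells and 0.118 FPKM in WT cells. Mast cell and basophil markers, of a lineage whose progenitors use α4β7, summed to 4.07 FPKM in KO cells and 5.54 FPKM in WT cells. Kit alone made up most of that sum, at 3.999 FPKM in KO cells and 5.23 FPKM in WT cells. Cpa3 stood at 0.0667 FPKM in KO cells and 0.187 FPKM in WT cells. Mcpt8 was listed at 0 in KO cells and stood at 0.120 FPKM in WT cells, and Ms4a2, Fcer1a and Tpsb2 were listed at 0 in both. Of the 5 monocyte markers past the filter, 4 were higher in KO and 1 lower, with a median difference of 0.49. The part of mast cells, basophils or monocytes in the Itgb7 difference was not tested. Itgb7 lies at chromosome 15, 102215995 to 102231944 on the minus strand, and 24 other expressed genes with 1 row lie within 1 Mb. Their median difference was -0.03, their lowest -0.29 and their highest 0.37. Among the 10 genes, the highest neighbour values were 1.72 near Itgb1, 1.34 near Spp1 and 1.16 near Itgav. A local cause was not tested for any of them.

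The order of levels within each library was nearly the same. In KO the receptor genes ran from Itgb5 and Itgb1 through Cd44, Itga5, Itgav, Itga4, Itgb7 and Itgb3 to Itga9. In WT the order was the same except that Itgb3 stood above Itgb7. Cd44 and Itga5 were next to each other at 48.728 and 48.724 FPKM in KO, and at 50.4 and 41.9 FPKM in WT. With 1 library per genotype, it cannot be said which neighbours in this order differ beyond their spread. From the lowest to the highest, the receptor genes spanned a ratio of 145.4 in KO and 137.8 in WT.

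Set side by side per length, the chains of each receptor differed in level. Of the β chains that can pair with αv, Itgb5 made up 51.0% in KO and 51.7% in WT, and Itgb1 45.5% in KO and 43.7% in WT. Itgb3 made up 3.49% in KO and 4.52% in WT. The further αv partners were near 0, Itgb6 at 0.00603 FPKM in KO cells and 0 in WT cells, and Itgb8 at 0.0372 FPKM in KO cells and 0.0426 FPKM in WT cells. For αvβ3 the β chain was the lower one in both libraries, while for αvβ5 and αvβ1 it was the α chain. The ratio of Itgb3 to Itgav was 0.318 in KO and 0.515 in WT. Such a ratio within a library does not depend on how the library was scaled.

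For the receptors of the cryptic site, the α chain was the lower one in α4β1 and α9β1, and the β chain in α4β7. Itgb7 made up 8.73% of the β partners of α4 in KO and 6.11% in WT. The ratio of Itgb7 to Itga4 was 0.712 in KO and 0.457 in WT. For α9β1 the lower chain, Itga9, was at 1.02 FPKM in KO cells and 1.06 FPKM in WT cells. Itga8 is the α chain of α8β1, which also binds osteopontin but is not among the receptors of the cryptic site. It stood at 0.0714 FPKM in KO cells and 0.129 FPKM in WT cells, far below the filter. RNA levels do not give the amount of either chain at the cell surface.

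**Figure D3:**
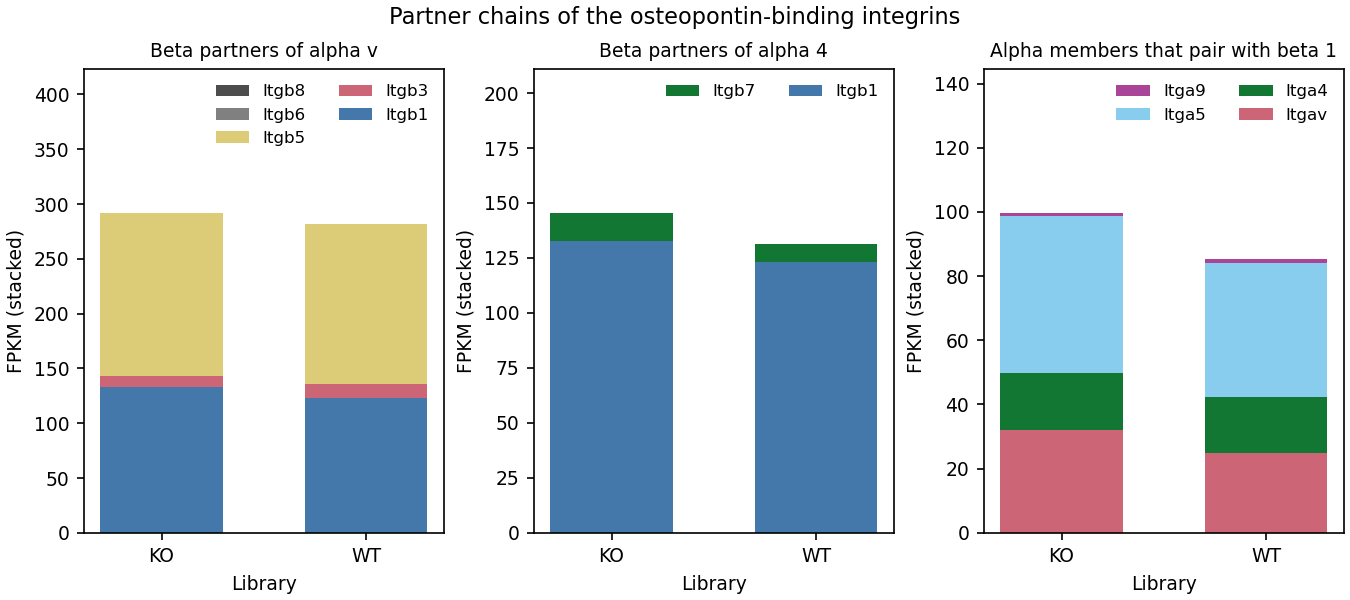
Stacked FPKM of the chains that can pair with αv (left), with α4 (middle) and, among the α chains described here, with β1 (right), in the KO and WT libraries. Itgb5 and Itgb1 fill nearly all of the αv partners, and Itgb7 is a band of 12.7 FPKM in KO cells and 8.03 FPKM in WT cells.

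The other 18 integrin chain genes, of receptors that mostly bind other ligands, did not differ by the 2-fold rule. Of the 18, 7 passed the filter, with 5 higher and 2 lower in KO in direction, against 47.4% and 52.6% of all symbols. At 2-fold 0 were higher and 0 lower, against 1.23% and 0.475%. The median difference was 0.10, and -0.0092 over all 18 with no filter. Itgad, an α partner of β2, stood at 0.886 FPKM in KO cells and 1.49 FPKM in WT cells (-0.40), and Itgal, the α chain of LFA-1, at 32.4 FPKM in KO cells and 27.5 FPKM in WT cells (0.23). Itga2b, the platelet chain that pairs with β3, stood at 4.05 FPKM in KO cells and 3.58 FPKM in WT cells (0.14). Itgax, the CD11c gene, stood at 135.0 FPKM in KO cells and 124.7 FPKM in WT cells (0.11). The β2 gene Itgb2, common to the leukocyte integrins and chosen here after its value was seen, stood at 483.3 FPKM in KO cells and 476.1 FPKM in WT cells, above every osteopontin receptor gene in both libraries.

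Other ligands of the same receptors differed by small amounts. Of 20 genes 7 passed the filter, with a median difference of -0.10. In direction 1 was higher and 6 lower, against 47.4% and 52.6% of all symbols. At 2-fold 0 were higher and 0 lower, against 1.23% and 0.475%. Vcam1, a ligand of α4β1, stood at 6.60 FPKM in KO cells and 9.31 FPKM in WT cells (-0.44). Tgfb1, whose latent form is bound by αv integrins, stood at 167.7 FPKM in KO cells and 194.7 FPKM in WT cells (-0.21), and the fibronectin gene Fn1 at 11.2 FPKM in KO cells and 12.96 FPKM in WT cells (-0.20). Vwf stood at 12.9 FPKM in KO cells and 13.9 FPKM in WT cells (-0.10). Mfge8, a secreted RGD protein that bridges dying cells to αv integrins and was chosen after its value was seen, stood at 606.9 FPKM in KO cells and 634.7 FPKM in WT cells, below Spp1 in WT and above it in KO.

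Genes whose products modify or cut osteopontin showed small differences where they passed the filter. Of 13 genes 8 passed the filter, with a median difference of 0.02. In direction 4 were higher and 4 lower, against 47.4% and 52.6% of all symbols. At 2-fold 0 were higher and 0 lower, against 1.23% and 0.475%. Acp5, the phosphatase that removes phosphate from osteopontin, stood at 21.8 FPKM in KO cells and 19.6 FPKM in WT cells (0.14). The cathepsin gene Ctsb stood at 6184 FPKM in KO cells and 5622 FPKM in WT cells (0.14), and the transglutaminase gene Tgm2 at 80.0 FPKM in KO cells and 73.5 FPKM in WT cells (0.12). Casp8 stood at 29.1 FPKM in KO cells and 31.3 FPKM in WT cells (-0.10). Below the filter, Mmp7 and Plg were listed at 0 in both libraries, and Mmp3, a protease that cuts osteopontin, had the list's largest difference, at 0.256 FPKM in KO cells and 1.47 FPKM in WT cells (-0.97). Fam20c, the kinase that phosphorylates osteopontin and was chosen after its value was seen, stood at 115.6 FPKM in KO cells and 117.5 FPKM in WT cells.

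The machinery that activates integrins and signals from them split in direction much as all symbols did, of which 47.4% were higher and 52.6% lower. Among activation and adhesion genes 18 of 22 passed the filter, 8 higher and 10 lower in direction, with a median difference of -0.03. At 2-fold 1 was higher and 0 lower, against 1.23% and 0.475% of all symbols. Apbb1ip (RIAM), which brings talin to integrins, stood at 51.9 FPKM in KO cells and 64.5 FPKM in WT cells (-0.31), vinculin (Vcl) at 10.2 FPKM in KO cells and 12.6 FPKM in WT cells (-0.28), and Parvg at 15.1 FPKM in KO cells and 12.3 FPKM in WT cells (0.27). The single gene of this list past 2-fold was Rasgrp2, an activator of Rap1, at 5.25 FPKM in KO cells and 1.83 FPKM in WT cells, which has several rows in the table.

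Among downstream kinases, adaptors and GTPases 24 of 25 passed the filter, with a median difference of -0.01. In direction 12 were higher and 12 lower, against 47.4% and 52.6% of all symbols. At 2-fold 1 was higher and 0 lower, against 1.23% and 0.475%. The single gene past 2-fold was again one with several rows, Vav3, a guanine nucleotide exchange factor. Its row used here stood at 6.10 FPKM in KO cells and 1.70 FPKM in WT cells, while its other row went the opposite way, at 1.94 FPKM in KO cells and 3.31 FPKM in WT cells. Pik3cd, also with several rows, stood at 13.9 FPKM in KO cells and 7.42 FPKM in WT cells (0.82). Vav1 stood at 78.7 FPKM in KO cells and 66.8 FPKM in WT cells (0.23) and the adaptor gene Tyrobp (DAP12) at 1083 FPKM in KO cells and 940.8 FPKM in WT cells (0.20). The other row of Rasgrp2 was at 0 in both libraries. For Pik3cd, 1 other row was at 0 in both, and another at 0.270 FPKM in KO cells and 0.319 FPKM in WT cells. Whether the differences of these symbols lie in how reads were shared between rows was not tested.

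Genes that carry integrins through endosomes had 11 of 12 members past the filter, with a median difference of -0.06. In direction 5 were higher and 6 lower, against 47.4% and 52.6% of all symbols. At 2-fold 0 were higher and 0 lower, against 1.23% and 0.475%. The endocytic adaptor gene Dab2 stood at 73.8 FPKM in KO cells and 104.4 FPKM in WT cells (-0.50). Rab4a, of the fast recycling route, stood at 1.41 FPKM in KO cells and 2.07 FPKM in WT cells (-0.35). Numb stood at 17.9 FPKM in KO cells and 21.98 FPKM in WT cells (-0.28), and Rab11a, of the slow recycling route, at 35.5 FPKM in KO cells and 31.5 FPKM in WT cells (0.17).

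**Figure D4:**
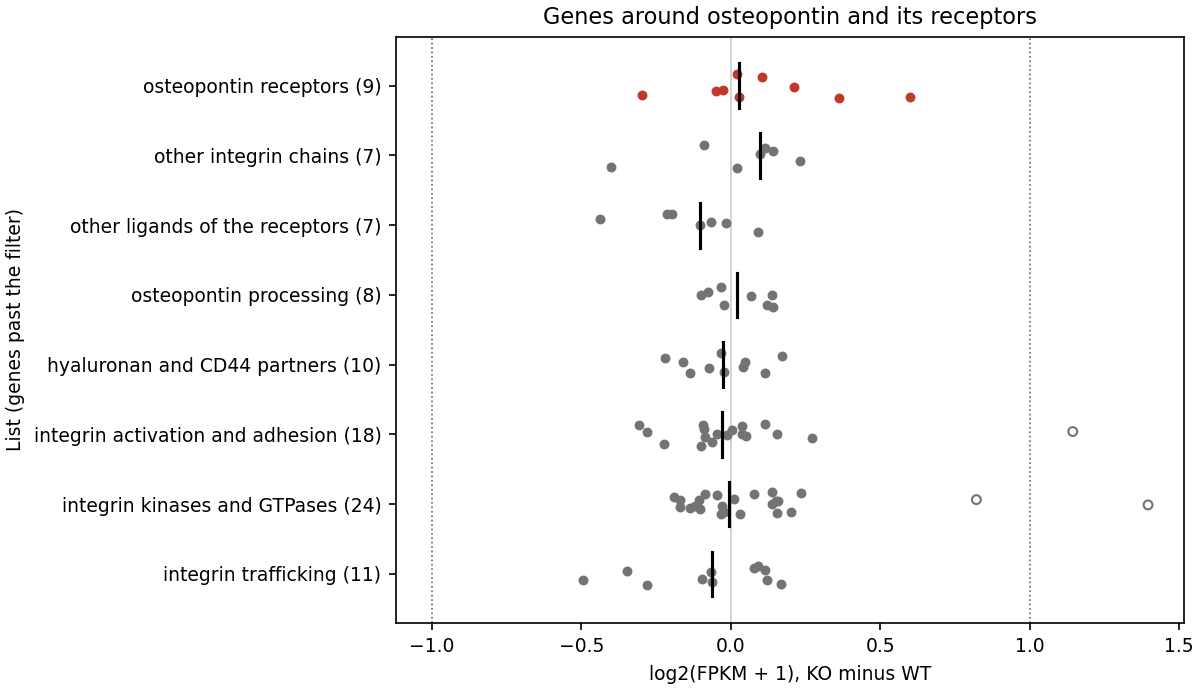
Difference in log2(FPKM + 1), KO minus WT, for each gene past the 1 FPKM filter in the osteopontin receptor list (red) and in the lists around it (grey; open circles have several rows in the table), with black bars at list medians and dotted lines at 2-fold. Receptor genes run from -0.30 to 0.60, and the 2 genes past 2-fold, Rasgrp2 and Vav3, are open circles.

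Over the 8 lists around the receptors, 84 of 130 distinct genes passed the filter. In direction 38 were higher and 46 lower in KO, against 47.4% and 52.6% of all symbols, and the median over these genes was -0.02. Past 2-fold there were 2 higher and 0 lower, against 1.23% and 0.475% of all symbols. Both of the 2 have several rows.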

How the data were processed

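RNA of 1 KO and 1 WT library was measured by sequencing. The deposited values are FPKM, calculated by the authors. RSEM, DESeq2 and the mm10 build appear in the submitters' processing notes without roles or versions, and no aligner, annotation or strand setting is given in the sources used here. Besides KO and WT, the deposited values include 2 columns named KO-CM and WT-CM, which carry the same genotype labels. Neither could be assigned to a described sample by its title, so both were left unread. Whether the receptor gene differences given here also appear between those columns was not tested. For each of 1766 symbols with several rows, the row with the highest mean was kept. Differences are log2(FPKM + 1), KO minus WT, which understates changes of low genes. Folds printed as ratios are of FPKM. Symbols with a mean of at least 1 FPKM were kept (10536). A symbol was called at a difference of at least 1, a rule of size without a test. The receptor genes and lists were chosen with earlier results of these data known. Named genes were the 10 genes, the 4 largest differences and any past 2-fold in each list, and the 5 protein-coding symbols with 1 row nearest to Spp1. Annotation was GENCODE M21 (GRCm38).

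Depth was read from the steps of low values. Over 2833 symbols, a WT to KO ratio of 1.308 turned 78.8% of value pairs into ratios of whole numbers within 0.001, against 10.6% for a ratio wrong by 5%. The commonest step in 308 long single-transcript genes (35 in the fullest bin) corresponded to 17.4 M fragments in KO and 22.7 M in WT. Steps about 0.5 of that size were seen for 8 genes, so single reads may be the unit. Fragment numbers use the longest coding transcript, are approximate, and carry no interval. Computation used Python 3.11.15 with pandas 2.3.3 and numpy 2.4.6.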

Additional observations from a re-analysis of the deposited data

How the results depend on the processing

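No paired analysis was possible because each genotype has 1 library. Over 7 other settings the Spp1 difference ran from -8.45 to -7.94. Summing rows, 1 of these settings, could not change any of the 10 genes, which have 1 row each. Across the 63 values of the 9 receptor genes under those settings, 0 passed 2-fold and 2 changed sign. Both arose with equal sums without Spp1 and Lyz2, a scaling that moves the median of all symbols from -0.01 to -0.06: Itga4 to -0.035, Itgb5 to -0.030 and with it the receptor median to -0.030. Itgb7 ran from 0.44 to 0.65, Itgav from 0.31 to 0.41 and Itgb3 from -0.35 to -0.22. Receptor genes called higher numbered 1 at 1.5-fold and 2 at a difference of at least 0.32, against 3.24% and 7.55% of all symbols. List medians near 0 changed sign as follows. With no filter, other integrin chains came to -0.0092 and osteopontin processing to -0.023; with equal sums without Spp1 and Lyz2, osteopontin processing came to -0.036. The mean of the list was 0.029 for activation and adhesion and 0.096 for kinases and GTPases. The median of kinases and GTPases came to 0.0069 with TPM scaling, 0.0054 when centred and 0.011 with the length trend removed, and CD44 partners to 0.0032 with the length trend removed. Trafficking genes came to 0.0088 at a mean of at least 5 FPKM. In the lists around the receptors, 0 genes were called higher with a pseudocount of 5 FPKM. There were also 0 at a mean of at least 5 FPKM, 1 with rows summed and 0 without symbols with several rows. At a difference of at least 0.32, 3 genes of these lists were called higher and 4 lower, against 7.55% and 4.3% of all symbols. Removing the length trend and leaving out symbols with several rows were chosen after seeing the data. The cause was not tested. Summing rows could not change the chain shares, because each chain has 1 row. Depth limits Itga9 most.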
